A study of Mus musculus with 15 samples.

Results

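The genes described here are 9 members of the Trem2 and Siglec signalling system of myeloid cells, taken by name from the 20610 rows of the deposited expression table. They are Trem2, Tyrobp, Cd33, Siglech, Siglece, Siglec1, Plcg2, Inpp5d and Syk. Each name matched 1 row. RNA was measured in neurons, astrocytes and microglia that had been separated with magnetic beads from the cortex of wild-type (WT) male mice at postnatal day 28, with 5 libraries per cell type and 15 in all. All groups shared genotype, sex, age and tissue, and none was treated. Values are in TPM, a unit of transcript abundance scaled by transcript length and by the library total, so levels can be set side by side between genes. The labels tie no library to an animal, so p-values measure the spread between these libraries, which may be technical. In bulk RNA, fewer cells of a type and less RNA per cell cannot be told apart.

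TREM2 is a lipid-binding receptor of microglia and other macrophages that has no signalling tail of its own and pairs with the adaptor TYROBP (DAP12). The adaptor carries an immunoreceptor tyrosine-based activation motif, or ITAM, which recruits the kinase SYK once it is phosphorylated, and SYK passes the signal to phospholipase C gamma, PLCG2. Siglecs are receptors for sialic acids on glycans. Many of them carry inhibitory motifs, or ITIMs, that recruit phosphatases, and the lipid phosphatase SHIP1, encoded by Inpp5d, removes a product of PI3 kinase that sustains ITAM signals. In human genetics TREM2, CD33, PLCG2 and INPP5D are among the genes tied to the risk of Alzheimer's disease.

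Marker genes were highest in the libraries of their own label, but the neuron libraries held more vascular than neuronal marker transcripts. The 15 microglia markers summed to 68401 to 109332 TPM in microglia libraries, 82.8 to 137 in neuron libraries and 176 to 241 in astrocyte libraries. In neuron libraries the 12 neuron markers summed to 1190.2 ± 380.0 TPM, beside 8014 ± 1337 TPM of 9 endothelial markers and 1860.3 ± 736 TPM of 8 mural cell markers (mean ± SD, n = 5). Oligodendrocyte markers summed to 69250 and 51362 TPM in microglia libraries 1 and 2 and to 240 to 8074 TPM in the other 3. In neuron libraries 1 to 5 they summed to 8434, 10340, 213, 242 and 1614 TPM. Here neurons stands for the libraries with that label.

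Promoter sequence was looked at because the members were high together in the microglia libraries. RefSeq promoter windows (build GRCm38.p6, 250 bases before to 50 after a start site) were matched for 7 of the 9 genes, all but Tyrobp and Siglec1. The 7-base core GAGGAAG, which the myeloid ETS factor PU.1 can bind, was searched on both strands. It was present for 4 of the 7 genes, Trem2, Siglece, Inpp5d and Cd33, and for 15.4% of the 27025 genes in the table (13.6% of its 32851 windows). The 100 bases before the start site are shown for the 3 genes where the core lay in that stretch, 5′ to 3′ on the gene's strand, with the core or its reverse complement in capitals. They lie at chr17:48346301-48346400 (plus strand) for Trem2, chr7:43660162-43660261 (minus strand) for Siglece and chr1:87620212-87620311 (plus strand) for Inpp5d, and none overlaps a GENCODE exon. A match is a description of the letters and not of binding.
Trem2: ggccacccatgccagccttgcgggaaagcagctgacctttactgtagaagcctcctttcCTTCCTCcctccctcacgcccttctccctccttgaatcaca
Siglece: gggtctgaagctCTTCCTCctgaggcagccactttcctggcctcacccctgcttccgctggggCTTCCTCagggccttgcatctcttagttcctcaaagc
Inpp5d: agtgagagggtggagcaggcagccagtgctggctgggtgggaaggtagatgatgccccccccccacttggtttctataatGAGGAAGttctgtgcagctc

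All 9 members were higher in microglia than in neurons and than in astrocytes. A gene was called when its adjusted p was below 0.05 and its difference on the log2(TPM + 1) scale at least 1, that is 2-fold. Of the 13351 genes tested, 9.74% were called higher in microglia than in neurons and 10.2% higher than in astrocytes, while 29.5% and 32.3% were called lower. For each of the 9 members every microglia library lay above every neuron and every astrocyte library, a separation seen for 12.1% of tested genes against neurons and 12.5% against astrocytes. The filter asked for 1 TPM in 5 libraries, and 5 members (Cd33, Siglece, Siglec1, Plcg2 and Syk) passed it only through the microglia libraries, so their calls carry no weight as a count. Both comparisons share the same 5 microglia libraries.

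**Figure D1:**
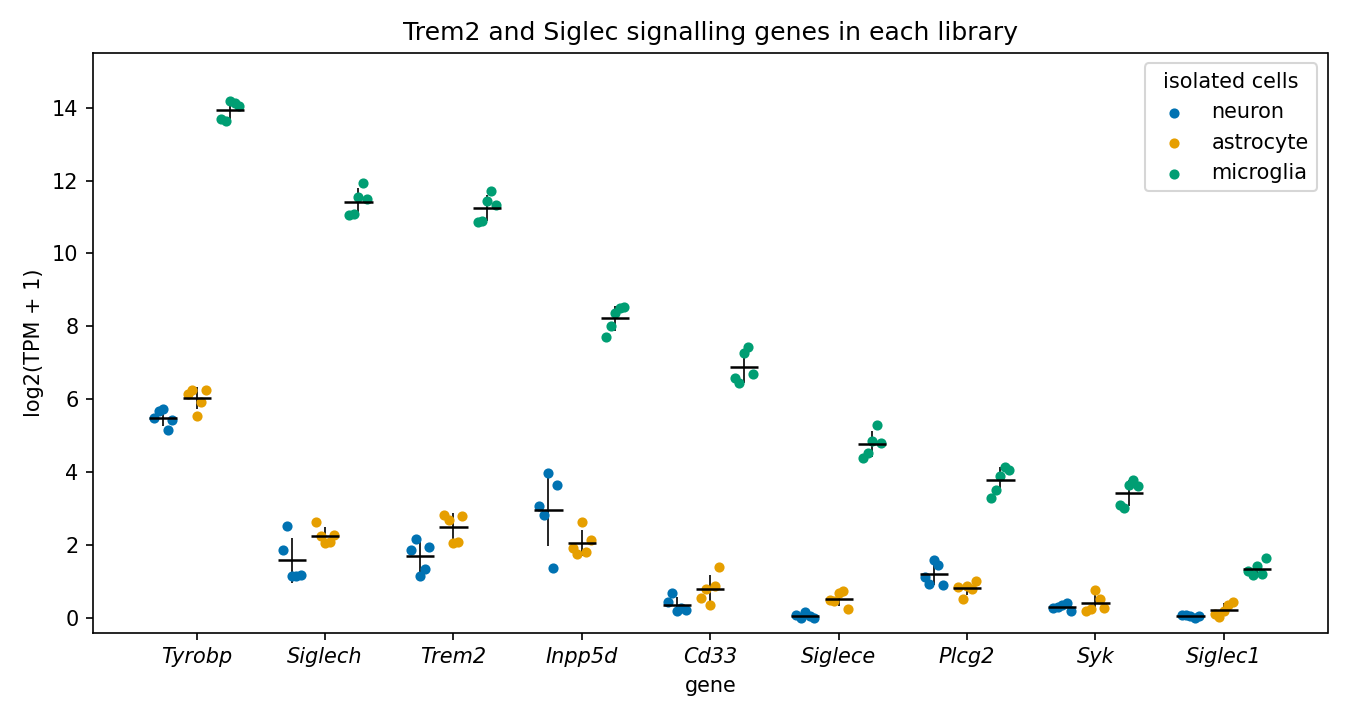
Levels of the 9 genes on the log2(TPM + 1) scale (y axis) by gene (x axis), one point per library, with the mean (horizontal line) and SD (vertical line) of the 5 libraries of each cell type. Microglia points lie above all others for every gene, from Tyrobp at 12681 to 18484 TPM down to Siglec1 at 1.28 to 2.12 TPM.

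Trem2 (chr17:48346401-48354147, mm10), the receptor, was at 1877, 1901, 2783, 3349 and 2576 TPM in microglia libraries 1 to 5. It was at 2.66, 3.53, 1.22, 1.55 and 2.83 TPM in the neuron libraries and at 6.14, 5.48, 3.18, 3.26 and 5.98 TPM in the astrocyte libraries. Libraries 1 and 2 were the lowest of the microglia, and even these stood far above every other library. The log2 difference was 9.55 ± 0.23 (SE) from neurons, or 751-fold (limma, Benjamini-Hochberg adjusted p = 5.02e-16), and 8.75 ± 0.23 from astrocytes, or 431-fold (adjusted p = 1.67e-15).

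Tyrobp (chr7:30413760-30417585), the ITAM adaptor, had the highest level of the 9 genes in each cell type. Its microglia values were 13316, 12681, 18484, 17877 and 16907 TPM, which placed it between rank 5 and rank 8 of all genes in those libraries. Neuron libraries held 43.5, 50.3, 51.9, 34.6 and 42.2 TPM and astrocyte libraries 70.3, 75.9, 45.7, 60.0 and 75.4 TPM. The log2 difference of microglia was 8.44 ± 0.16 from neurons (348-fold, adjusted p = 4.95e-17) and 7.91 ± 0.16 from astrocytes (240-fold, adjusted p = 2.32e-16). In the microglia libraries the Tyrobp level was 5.34 to 7.09 times the Trem2 level (6.46 ± 0.66, SD, n = 5). TYROBP also serves receptors other than TREM2, which are described with the pathway lists.

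Siglech (chr7:55768178-55778925), a Siglec that signals through TYROBP and marks microglia among brain cells, was the most abundant Siglec of the set. It was at 2108, 2161, 2992, 3939 and 2887 TPM in microglia, at 2.63, 4.77, 1.23, 1.23 and 1.28 TPM in neurons and at 5.17, 3.75, 3.16, 3.23 and 3.83 TPM in astrocytes. Neuron libraries 1 and 2 were above the other 3 neuron libraries, and none came near the microglia. Its log2 differences, 9.84 ± 0.25 from neurons (919-fold, adjusted p = 8.90e-16) and 9.17 ± 0.25 from astrocytes (574-fold, adjusted p = 2.34e-15), were the largest of the 9 genes. Siglech and Trem2 kept a narrow ratio in the microglia libraries, 1.08 to 1.18 (1.13 ± 0.04, SD, n = 5).

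Cd33 (chr7:43524216-43544428), the mouse counterpart of human CD33, was at 94.9, 86.9, 153, 173 and 103 TPM in microglia. Neuron libraries held 0.14 to 0.61 TPM (median 0.21) and astrocyte libraries 0.28 to 1.63 TPM (median 0.72), and these ranges overlapped each other. The log2 difference of microglia was 6.53 ± 0.22 from neurons (92.4-fold, adjusted p = 4.83e-14) and 6.10 ± 0.22 from astrocytes (68.7-fold, adjusted p = 9.34e-14). With a pseudocount of 0.1 in place of 1 these differences were 8.34 and 7.25.

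Siglece (chr7:43651070-43660161), an inhibitory Siglec of mouse myeloid cells, was at 20.1, 22.2, 27.8, 38.6 and 27.0 TPM in microglia. It was listed at 0 in neuron libraries 2 and 5, at 0.04 to 0.13 TPM in the other 3, and at 0.18 to 0.67 TPM in astrocytes. The log2 difference of microglia was 4.72 ± 0.17 from neurons (adjusted p = 8.07e-14) and 4.26 ± 0.17 from astrocytes (adjusted p = 2.27e-13), and 7.58 and 5.68 with the pseudocount of 0.1. Siglech was 97.5 to 108 times as abundant as Siglece in the microglia libraries. Neutrophils also carry Siglece, and neutrophil markers summed to 367 to 951 TPM in microglia and 3.47 to 27.0 TPM in the other libraries, and their part was not tested. Cd33, Siglece and Siglech lie on chromosome 7 and belong to one family, so reads of shared stretches may be split between them and their levels are uncertain to that extent.

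Siglec1 (chr2:131069220-131086765), known as sialoadhesin or CD169 and typical of border and tissue macrophages, was the lowest of the 9 genes in every cell type on average. It was at 1.45, 1.28, 1.67, 1.29 and 2.12 TPM in microglia, 0 to 0.06 TPM in neurons and 0.01 to 0.35 TPM in astrocytes. The groups did not overlap, but all values were low and the log2 differences small, 1.30 ± 0.12 from neurons (adjusted p = 2.60e-08) and 1.12 ± 0.12 from astrocytes (adjusted p = 1.38e-07). The fold depends on the pseudocount here, since with 0.1 in place of 1 the differences were 3.61 and 2.76. The 3 genes with the pattern most like Siglec1 over the 15 libraries were Cd163 (Pearson r = 0.991), Lyve1 (0.987) and Fcna (0.986), of which Cd163 and Lyve1 were among the 9 border macrophage markers. Siglec1 and Cd163 were both highest in microglia library 5, where Cd163 was at 6.28 TPM against 2.35 to 4.49 in the other 4. All 9 border macrophage markers were above 0 in every library. They summed to 1360, 1481, 2050, 1436 and 1392 TPM in microglia libraries 1 to 5, and to 40.8 to 80.4 TPM in the others. Pf4 made up most of the sum (789 to 1363 TPM in microglia). Pf4 was highest in library 3, as were Mrc1 (22.3 TPM), Ms4a7 (121 TPM), Folr2 (86.5 TPM) and Stab1 (125 TPM). Cd163, Lyve1 (49.8 TPM), F13a1 (35.6 TPM) and Cbr2 (289 TPM) were highest in library 5. The part of these cells in the Siglec1 values was not tested.

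**Figure D2:**
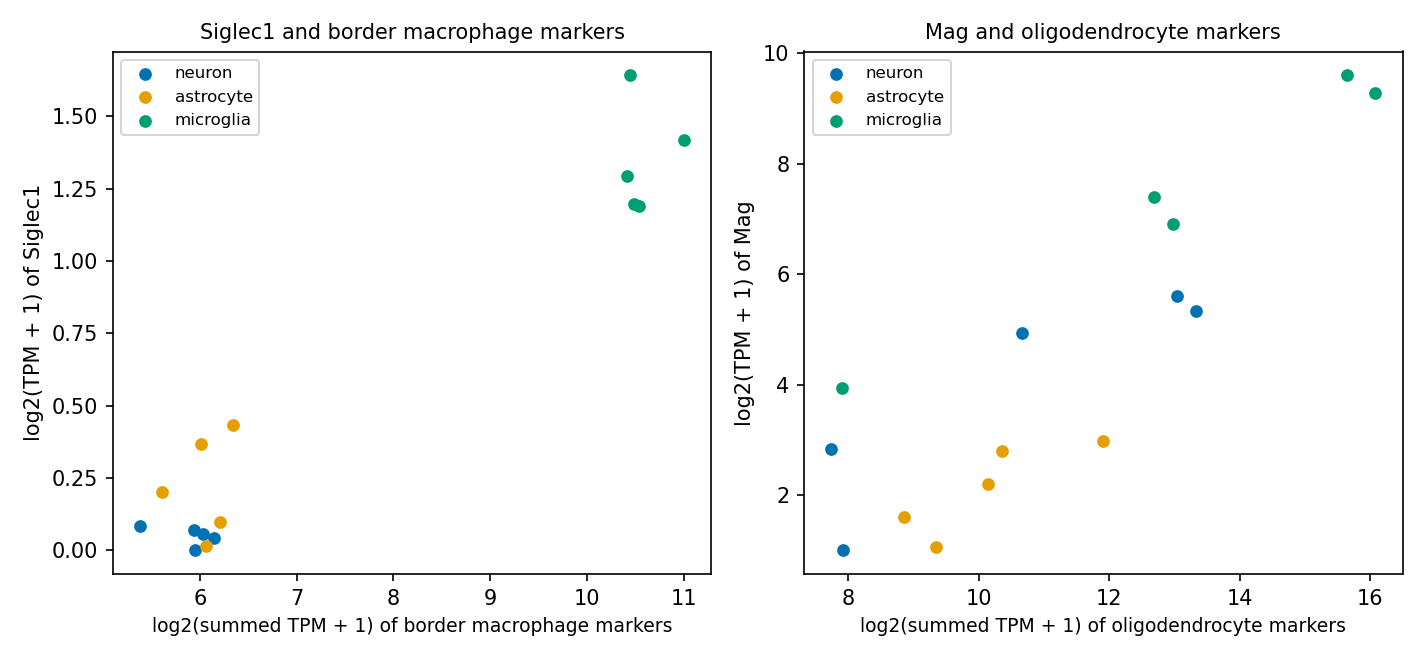
Left, Siglec1 against the summed border macrophage markers, and right, Mag against the summed oligodendrocyte markers, both axes as log2(TPM + 1), one point per library coloured by cell type. The microglia libraries are the highest on both axes on the left, and on the right Mag ranges from 14.3 to 778 TPM among them.

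Syk (chr13:52583173-52648792), the kinase that binds phosphorylated ITAMs, was at 7.52, 7.10, 11.4, 12.8 and 11.2 TPM in microglia. Neuron libraries held 0.15 to 0.33 TPM and astrocyte libraries 0.15 to 0.70 TPM. The log2 difference was 3.11 ± 0.17 from neurons (8.66-fold, adjusted p = 2.08e-11) and 3.02 ± 0.17 from astrocytes (8.12-fold, adjusted p = 2.30e-11). With the pseudocount of 0.1 these differences were 4.86 and 4.63, because the levels outside microglia lie below 1 TPM.

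Plcg2 (chr8:117498291-117635142), the phospholipase that makes inositol trisphosphate and diacylglycerol downstream of SYK, had a level like that of Syk in microglia and a higher one in neurons. It was at 8.81, 10.5, 13.8, 16.7 and 15.8 TPM in microglia, at 1.17, 0.90, 2.03, 1.76 and 0.89 TPM in neurons and at 0.82, 0.44, 0.83, 0.74 and 1.02 TPM in astrocytes. The log2 difference was 2.58 ± 0.19 from neurons (5.97-fold, adjusted p = 1.87e-09) and 2.97 ± 0.19 from astrocytes (7.83-fold, adjusted p = 2.08e-10). A miRNA gene lies on the opposite strand within Plcg2 in GENCODE, and whether reads were counted by strand is not given in the sources used here.

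Inpp5d (chr1:87620312-87720507), which encodes SHIP1, was the most abundant of the 3 signalling enzymes. It was at 209, 258, 327, 360.4 and 366 TPM in microglia, at 7.46, 6.06, 14.7, 1.58 and 11.4 TPM in neurons and at 2.81, 2.39, 5.25, 2.51 and 3.38 TPM in astrocytes. The neuron libraries were spread widely, with library 4 below all astrocyte libraries and the other 4 above them. The log2 difference of microglia was 5.25 ± 0.35 from neurons (adjusted p = 4.61e-10) and 6.17 ± 0.35 from astrocytes (71.9-fold, adjusted p = 3.74e-11). Inpp5d was 27.9 to 36.4 times as abundant as Syk in the microglia libraries, and Plcg2 was 1.17 to 1.48 times as abundant as Syk.

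The order of mean levels in microglia was Tyrobp, Siglech, Trem2, Inpp5d, Cd33, Siglece, Plcg2, Syk and Siglec1, over a range from 15853 to 1.56 TPM. Ranges of neighbours in this order overlapped for Siglech and Trem2 and for Plcg2 and Syk, although Siglech was above Trem2 and Plcg2 above Syk within each of the 5 libraries. In neurons Inpp5d stood second (8.25 ± 5.04 TPM), followed by Trem2, Siglech, Plcg2, Cd33, Syk, Siglece and Siglec1. Ranges did not overlap between Tyrobp and Inpp5d, Plcg2 and Cd33, or Syk and Siglece, and overlapped for the other neighbours. In astrocytes Trem2 stood second (4.81 ± 1.47 TPM), followed by Siglech, Inpp5d, Cd33, Plcg2, Siglece, Syk and Siglec1. Ranges did not overlap between Tyrobp and Trem2 or between Inpp5d and Cd33, and overlapped for the other neighbours.

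Within the microglia libraries most members shared their lowest libraries. For 8 of the 9 genes, all but Siglec1, libraries 1 and 2 held the lowest values, and these libraries also held the most oligodendrocyte transcripts and the lowest microglia marker sums (72950 and 68401 TPM). The coefficient of variation over the 5 libraries ran from 16.9% for Tyrobp to 31.5% for Cd33, beside 21.1% for the microglia marker sum. Taken per TPM of that sum it was lower for each of the 9 genes, from 9.55% for Syk to 21.6% for Cd33. Without libraries 1 and 2 the Trem2 log2 difference from neurons was 9.80, and with oligodendrocyte markers taken out of the TPM total it was 9.59.

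**Figure D3:**
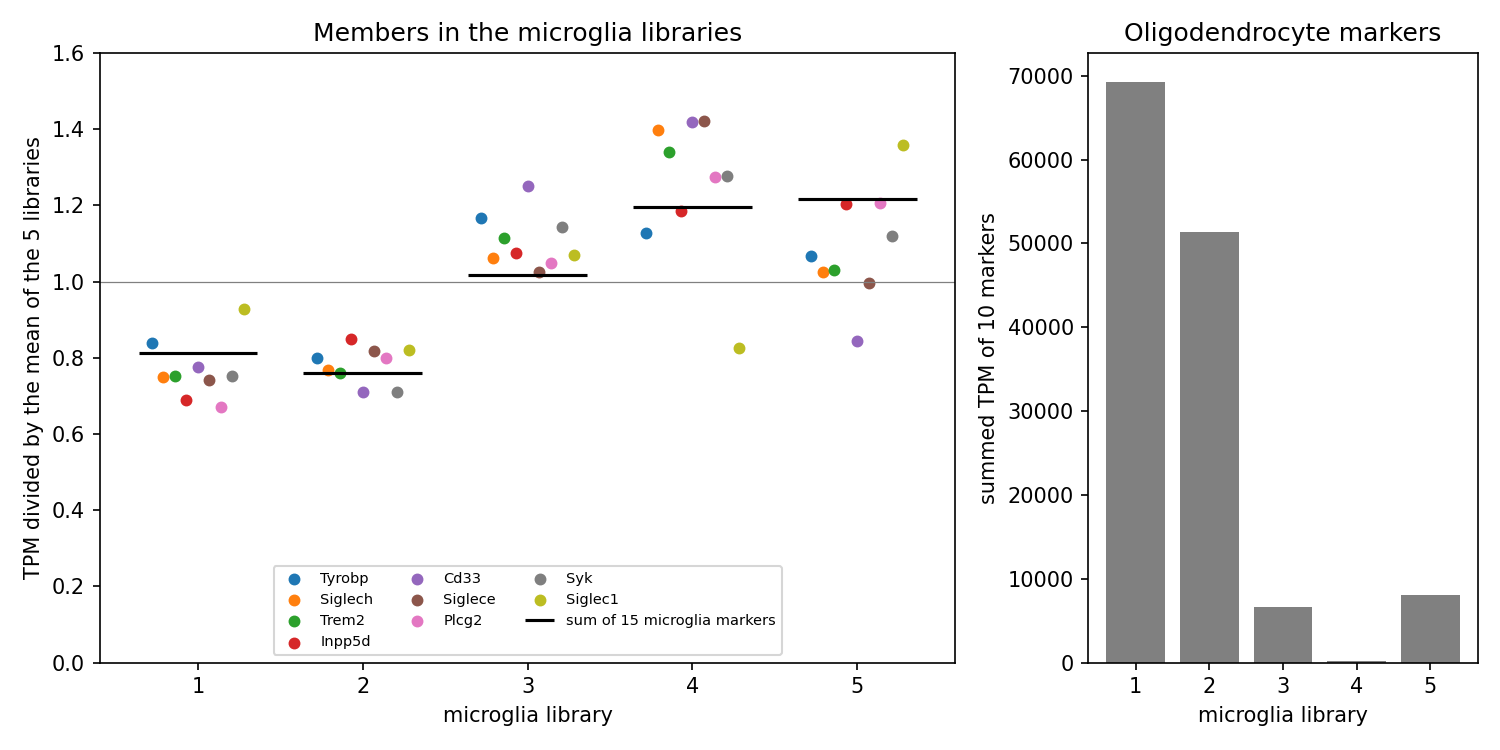
Left, TPM of each gene in the 5 microglia libraries (x axis) divided by its mean over them (y axis), with the summed microglia markers as black lines. Right, summed TPM of 10 oligodendrocyte markers in the same libraries, 69250 and 51362 in libraries 1 and 2, where all genes but Siglec1 have their lowest values.

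Set against their own microglia level, the members fell into different ranges outside microglia. The microglia marker sum in neuron libraries was 0.117% of its microglia mean (0.0921 to 0.153% per library), and in astrocyte libraries 0.227% (0.196 to 0.268%). Trem2 was at 0.0944% of its microglia mean in neurons and 0.193% in astrocytes, and Siglech at 0.0791% and 0.136%. Tyrobp was at 0.281% and 0.413%, and Cd33 at 0.242% and 0.640%. The 3 signalling enzymes had larger shares. Plcg2 was at 10.3% in neurons and 5.87% in astrocytes, Inpp5d at 2.71% and 1.07%, and Syk at 2.44% and 3.40%. The low Siglece and Siglec1 were at 0.170% and 2.30% in neurons and at 1.65% and 11.1% in astrocytes. Among the 15 microglia markers the share ran from 0.0623% (P2ry13) to 4.06% (Sall1) in neurons, with a median of 0.0970%, and from 0.0552% (Selplg) to 14.8% (Sall1) in astrocytes, with a median of 0.213%. Sall1 stood apart from the other markers, of which Olfml3 was the highest (0.519% in neurons and 1.06% in astrocytes). In neurons Plcg2 alone of the 9 genes exceeded Sall1, and 4 (Plcg2, Inpp5d, Syk and Siglec1) exceeded Olfml3. In astrocytes 0 of the 9 exceeded Sall1, and 5 (the same 4 and Siglece) exceeded Olfml3. These shares are a description without a test, and the part of microglial RNA in the neuron and astrocyte libraries was not tested.

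**Figure D4:**
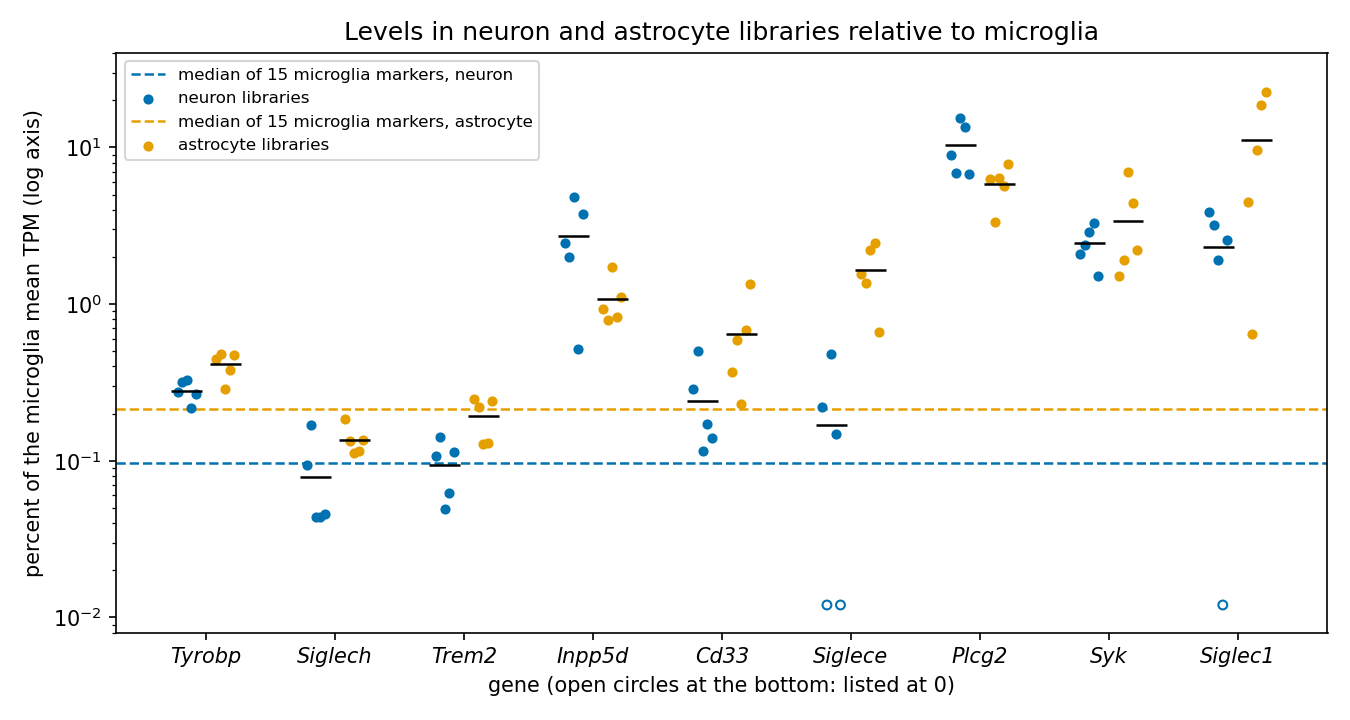
Level of each gene in the neuron and astrocyte libraries as a percent of its mean TPM in microglia (log axis), one point per library, black lines for means, dashed lines for the median of 15 microglia markers and open circles for libraries listed at 0. Trem2 and Siglech lie near the dashed lines, and Plcg2 at 10.3% in neurons lies far above them.

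Between neurons and astrocytes 0 of the 9 genes were called by limma, beside 25.6% of all tested genes called in either direction (12.9% higher and 12.7% lower in neurons). For 5 of the 9 both the unadjusted and the adjusted p lay under the threshold of 0.05, with differences under 2-fold. Trem2 had a log2 difference, neurons minus astrocytes, of -0.80 (adjusted p = 0.00623), Tyrobp -0.54 (adjusted p = 0.00873), Siglech -0.68 (adjusted p = 0.0266) and Siglece -0.46 (adjusted p = 0.0274). The microglia marker sum was likewise smaller in neurons, 105 ± 23.7 TPM against 204 ± 26.2 TPM in astrocytes. Siglece was the 1 member whose neuron libraries all lay below the astrocyte libraries, a separation seen for 20.2% of tested genes. Inpp5d (0.92, adjusted p = 0.0359) and Plcg2 (0.39, adjusted p = 0.0970) had positive differences. Inpp5d was called higher in neurons without neuron library 4 (1.32, adjusted p = 0.000273) or astrocyte library 3 (1.07, adjusted p = 0.0248), and its difference was 0.67 without neuron library 3. Neuron libraries also held more T cell and natural killer cell transcripts than astrocyte libraries. The 8 markers summed to 38.3, 90.0, 28.1, 62.7 and 20.0 TPM in neuron libraries 1 to 5, against 4.04 to 9.22 TPM in astrocytes. Inpp5d was at 7.46, 6.06, 14.7, 1.58 and 11.4 TPM in the same neuron libraries. All 8 markers were above 0 in every neuron library and 2 were at 0 in at least 1 astrocyte library. The 12 monocyte, dendritic cell and B cell markers were also higher in neuron libraries. They summed to 106, 169, 107, 150 and 128 TPM in neuron libraries 1 to 5, against 8.80 to 30.1 TPM in astrocytes. The part of any of these cells in the Inpp5d values was not tested.

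The patterns most like those of the members were those of other genes high in microglia. Over the 15 libraries, log2(TPM + 1) of Trem2 correlated most with C1qc (Pearson r = 0.999), Siglech (0.998) and C1qa (0.998), and Tyrobp with Fcer1g (0.999), Ly86 (0.998) and Ms4a6d (0.998). Siglech was closest to Ctss, Cd300c2 and Fcer1g (0.998 to 0.999), and Cd33 to Fcgr1, P2ry13 and Ly86 (0.998 each). Siglece was closest to Ugt1a7c, Tifab and Adgre1 (0.998 each), and Syk to Arhgap30, Pik3cg and Pde3b (0.997 to 0.998). Plcg2 was closest to Lbx2, Ctsc and Syngr2 (0.993 each), and Inpp5d to Rgs10 (0.982), Rgs2 (0.981) and Cmklr1 (0.980). Rgs10 was, like Inpp5d, also more abundant in neurons (33.3 TPM) than in astrocytes (16.3 TPM) on average. These values rest mostly on the gap between microglia and the other cells, which the libraries of each cell type share.

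Genes of the pathway were described from 8 lists. The filter limit given for the members holds for these lists too. Genes that passed it only through the microglia libraries were 8 of 11 tested in the TREM list, 2 of 3 other Siglecs, 6 of 16 inhibitory genes, 8 of 24 kinases and adaptors, 1 of 17 genes downstream of phospholipase C gamma, 1 of 9 in the ligand list, 0 of 27 sialic acid genes and 2 of 11 disease-associated genes. Counts of these genes as higher in microglia carry no weight.

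The tested genes of the TREM list were called higher in microglia, but 8 of the 11 passed the filter only through the microglia libraries. Of 16 genes of the TREM family, TYROBP-linked receptors and adaptors, 11 could be tested. Each was higher in microglia than in neurons (median log2 difference 2.33, beside -0.48 over all tested genes) and than in astrocytes (2.08, beside -0.57). The calls were 100% of the tested genes of the list in each comparison, beside 9.74% and 10.2% of all tested genes. The largest differences were those of Csf1r, the CSF1 receptor (1841 ± 631 TPM in microglia against 1.88 ± 0.831 in neurons and 4.21 ± 1.24 in astrocytes), Fcer1g, the other main ITAM adaptor (7624 ± 1045, 21.4 ± 5.35 and 32.7 ± 7.02 TPM), and Clec5a, a TYROBP-linked lectin (115 ± 25.4, 0.192 ± 0.144 and 0.484 ± 0.355 TPM). The integrin Itgam was higher by 5.75 and 5.44 and the adaptor Hcst (DAP10) by 4.43 and 5.82, from neurons and astrocytes. Fcer1g was at 0.467 to 0.504 times the Tyrobp level in the microglia libraries. The 3 genes that passed the filter without the microglia libraries were Csf1r, Fcer1g and Hcst. Trem1, Treml1, Treml2, Cd300lb and Siglec15 did not pass the filter.

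Of 5 Siglecs outside the set 3 were tested and called higher in microglia in both comparisons, beside 9.74% and 10.2% of all tested genes. Siglecf and Siglecg passed the filter only through microglia, so their calls carry no weight as a count. Siglecf was at 7.64 ± 2.45 TPM in microglia and at 0 to 0.14 TPM in the other libraries. Siglecg was at 2.27 ± 0.586 TPM, and its call against astrocytes (log2 difference 1.01) ended with array weights (0.93) and without astrocyte library 1 or 2 (0.84 each) or microglia library 3 (0.97) or 4 (0.93). Mag, the Siglec of myelin, was at 621, 778, 169, 14.3 and 119 TPM in microglia libraries 1 to 5, and library 4 lay within the neuron range of 1 to 47.6 TPM. The oligodendrocyte sums of the same libraries were 69250, 51362, 6610, 240 and 8074 TPM. Mag was higher in libraries 1 and 2 than in the other 3, as was the sum, but library 2 exceeded library 1 and library 3 exceeded library 5 for Mag and not for the sum. Mog, a myelin gene within that sum, was at 593, 841, 179, 3.75 and 92.6 TPM, which is the same order of libraries as for Mag. The part of oligodendrocyte RNA in the Mag values was not tested. Its log2 difference from neurons, 3.49 (adjusted p = 0.00342), was 2.14 and no longer called without microglia libraries 1 and 2.

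Inhibitory receptors and phosphatases were also mostly higher in microglia. Of 16 genes, all tested, 14 were higher than in neurons (median 4.05) and 14 than in astrocytes (3.61). This was 87.5% in each comparison, beside 9.74% and 10.2% of all tested genes. The share includes 6 genes, among them Cd300a, that passed the filter only through microglia and whose calls carry no weight as a count. In both comparisons 0 were lower, beside 29.5% and 32.3%. Lair1, a collagen receptor with ITIMs, was at 659 ± 183 TPM in microglia against 1.32 ± 0.357 in neurons and 5.34 ± 0.843 in astrocytes. Ptpn6, the phosphatase SHP-1, was at 190.4 ± 51.9, 7.32 ± 7.15 and 1.79 ± 0.617 TPM, and Cd300a at 42.6 ± 10.3, 0.298 ± 0.136 and 0.506 ± 0.0879 TPM. Ptpn18, a cytosolic tyrosine phosphatase, was higher by 4.71 and 4.95, and the CD47 receptor Sirpa by 4.62 and 1.42. The exceptions were the broadly expressed Ptpn11 (10.8 ± 4.17 TPM in microglia against 17.9 ± 0.758 in neurons and 7.39 ± 0.660 in astrocytes) and Inppl1 (4.60 ± 2.86, 3.07 ± 2.01 and 5.19 ± 1.34 TPM), which encodes SHIP2, the relative of SHIP1. Ptpn11 was called higher than in astrocytes under median-of-ratios scaling (1.04), and lower than in neurons without microglia libraries 1 and 2 (-1.12). Inppl1 was called higher than in neurons under quantile normalization (1.01).

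Kinases and adaptors around SYK split by family member. Of 27 genes 24 were tested, and 15 were higher in microglia than in neurons (62.5%, beside 9.74% of all tested genes, median 1.28). Against astrocytes 15 were higher (62.5%, beside 10.2%, median 1.93). Both shares include genes that passed the filter only through microglia, 8 of the 24 with Blnk and Vav1 among them, whose calls carry no weight as a count. In each comparison 2 were lower (8.33%, beside 29.5% and 32.3% of all tested genes). The adaptor Blnk (log2 differences 5.78 and 6.04), the exchange factor Vav1 (5.53 and 5.56) and the adaptor Lat2 (5.20 and 5.60) were among those higher in both comparisons. Lower in microglia than in neurons were Lck (-1.03) and Zap70 (-1.46), kinases of T cells, at 3.67 ± 1.44 and 2.22 ± 0.597 TPM in neurons. Zap70 was at most 0.34 TPM in microglia and 0.57 TPM in astrocytes. It passed the filter only through the neuron libraries, so its call carries no weight. The 4 T cell markers (Cd3d, Cd3e, Cd3g and Cd2) summed to 6.03 to 24.2 TPM in neurons and 1.35 to 7.18 TPM in microglia, while the 4 natural killer and cytotoxic cell markers were at 14.0 to 73.9 and 43.2 to 102 TPM. The part of these cells was not tested. The Lck call ended under median-of-ratios scaling (-0.66) and quantile normalization (-0.40), and without microglia library 1, 3 or 5 or neuron library 3 or 4 (-0.88 to -0.96). Lower than in astrocytes were Src (-1.45) and Vav3 (-1.76). The Src call ended under both scalings (-0.80 under quantile normalization).

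Genes downstream of phospholipase C gamma were called in both directions. Of 18 genes 17 were tested, with 5 higher and 5 lower in microglia than in neurons (29.4% each, beside 9.74% and 29.5% of all tested genes, median -0.04). Against astrocytes 5 were higher and 2 lower (29.4% and 11.8%, beside 10.2% and 32.3%, median 0.15). Prkcd, a diacylglycerol-activated kinase, was at 112 ± 26.8 TPM in microglia against 10.2 ± 2.51 in neurons and 19.1 ± 3.64 in astrocytes. Card9, an adaptor towards NF-kappaB, was at 8.28 ± 1.64, 0.016 ± 0.023 and 0.072 ± 0.0726 TPM, and Nfatc1 (1.43 and 1.37) and Nfatc2 (1.42 and 1.53) were higher as well. Rasgrp3 was higher than in astrocytes (2.56), and Bcl10 higher than in neurons (1.03), a call that ended without microglia library 4 or 5 or neuron library 1 or 2 (0.97 to 0.99). Lower than in neurons were Rasgrp2 (354 ± 85.4 TPM in neurons, 29.9 ± 8.46 in microglia), Rasgrp1 (-2.51), the inositol trisphosphate receptor Itpr1 (-1.75), Prkcb (-1.21) and Plcg1 (-1.19), and the first 2 were also lower than in astrocytes (-2.12 and -2.81). Plcg1, the ubiquitous relative of Plcg2, was at 3.32 ± 1.28 TPM in microglia against 8.63 ± 1.73 in neurons and 5.87 ± 1.87 in astrocytes. Under median-of-ratios scaling and quantile normalization 7 genes were higher and 3 lower than in neurons, and 7 higher and 2 lower than in astrocytes. Against neurons Plcg1 (-0.69 under each) and Prkcb (-0.61 and -0.88) were then not called, and Rasgrp3 (1.49 and 1.17) and Malt1 (1.30 and 1.45) were. Against astrocytes Malt1 (1.39 and 1.45) and Bcl10 were then called. Without microglia libraries 1 and 2 Plcg1 was at -0.91 and not called.

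Genes of TREM2 ligands and shedding differed by gene, with the soluble ligands Apoe, Clu and Il34 highest outside microglia and the 4 tested Ms4a genes and Adam17 highest in microglia. Of 11 genes linked to TREM2 as ligands or to its shedding, 9 were tested, with 6 higher and 1 lower in microglia than in neurons (median 2.01). These were 66.7% and 11.1%, beside 9.74% and 29.5% of all tested genes. Against astrocytes 5 were higher and 3 lower (55.6% and 33.3%, beside 10.2% and 32.3%, median 1.07). The lipid carriers Apoe and Clu were highest in astrocytes, Apoe at 52341 ± 3705 TPM against 9169 ± 1364 in microglia, and Clu at 16072 ± 720.2 against 272 ± 62.6 TPM. Il34, also a ligand of the CSF1 receptor, was at 5.14 ± 2.10 TPM in microglia against 66.9 ± 16.5 in neurons and 45.5 ± 6.47 in astrocytes. Genes of the Ms4a cluster, tied in human genetics to soluble TREM2, were higher in microglia, led by Ms4a6d (150.3 ± 26.7 TPM, against 0.53 to 0.91 in neurons and 0.77 to 2.35 in astrocytes), with Ms4a6c (5.57 and 4.53), Ms4a4a (4.67 and 3.95) and Ms4a6b (4.61 and 4.95). The sheddase Adam17 was higher by 1.10 and 1.07, a call that ended without microglia library 4 (0.97 and 0.94) or, against astrocytes, without astrocyte library 2 (0.96). Adam10, also on this list, was not called in either comparison. It was called higher in microglia than in neurons under median-of-ratios scaling (1.06). Against astrocytes it was called higher under median-of-ratios scaling (1.52), quantile normalization (1.37) and without microglia libraries 1 and 2 (1.16).

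Genes that make, transfer or remove sialic acid, the sugar that Siglecs bind, were called in both directions, with shares of higher calls near the background. Of 30 genes 27 were tested, with 2 higher and 12 lower than in neurons (7.41% and 44.4%, beside 9.74% and 29.5% of all tested genes). The median was -0.65, beside -0.48 over all tested genes. Against astrocytes 3 were higher and 6 lower (11.1% and 22.2%, beside 10.2% and 32.3%), with a median of -0.49, beside -0.57. St3gal5, which makes ganglioside GM3, was higher in microglia (70.9 ± 20.2 TPM, against 29.4 ± 8.32 in neurons and 8.20 ± 1.98 in astrocytes), as was St6galnac4 (55.3 ± 15.9, 14.0 ± 3.67 and 23.4 ± 4.72 TPM), and St3gal6 was higher than in astrocytes (2.09). Lower than in neurons were the sialyltransferases St6galnac2 (-3.93), St6galnac3 (-2.67), St6gal2 (-2.29), St8sia5 (-2.04), St8sia4 (-1.92), St3gal1 (-1.87), St8sia3 (-1.81), St6galnac6 (-1.43), St6galnac5 (-1.37) and St8sia6 (-1.31) and the sialidases Neu4 (-2.12) and Neu2 (-1.40). Lower than in astrocytes were St6galnac5 (-4.33), St3gal4 (-3.17), St8sia5 (-2.86), Neu2 (-1.78), St6galnac2 (-1.60) and St6galnac6 (-1.42). Calls of St6galnac6 ended under both scalings in both comparisons (-0.81 to -0.98), that of St8sia6 under both (-0.94 and -0.70), and those of St6galnac5 (-0.69) and Neu2 (-0.74) against neurons and St6galnac2 against astrocytes (-0.93) under quantile normalization. Slc35a1, Cmas, Nans and Gne, the synthesis and transport steps shared by all sialylation, were not called in either comparison with microglia, but Nans was higher than in astrocytes under both scalings (1.39 and 1.25).

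Genes whose rise in disease-associated microglia depends on Trem2 differed among themselves in these untreated young mice. Of 13 genes 11 were tested, with 7 higher and 4 lower in microglia than in neurons (median 1.37). These were 63.6% and 36.4%, beside 9.74% and 29.5% of all tested genes. Against astrocytes 5 were higher and 4 lower (45.5% and 36.4%, beside 10.2% and 32.3%, median 0.74). The chemokine Ccl6 was at 749.8 ± 159 TPM in microglia, the cystatin Cst7 at 30.3 ± 7.90 and the lectin receptor Clec7a at 28.3 ± 10.5, each at most 6.24 TPM in every other library. Cd9 was higher by 1.88 and 1.59 and Lpl by 1.26 and 2.59, the first Lpl value no longer called without microglia library 4 (0.92). Lower than in both other cell types were Spp1 (20.2 ± 5.61 TPM in microglia against 112 ± 66.5 in neurons and 66.6 ± 15.6 in astrocytes), the receptor Axl (4.39 ± 1.81, 17.1 ± 4.60 and 42.4 ± 9.01 TPM) and Csf1 (-1.12 and -1.70). Ch25h was lower than in neurons (-2.01) and Cd63 was lower than in astrocytes (-1.28) and higher than in neurons (1.37). The Csf1 call against neurons ended under both scalings (-0.65 and -0.55) and without neuron library 3 (-0.89), and the Cd63 call under median-of-ratios scaling (-0.60). Itgax and Gpnmb did not pass the filter.

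**Figure D5:**
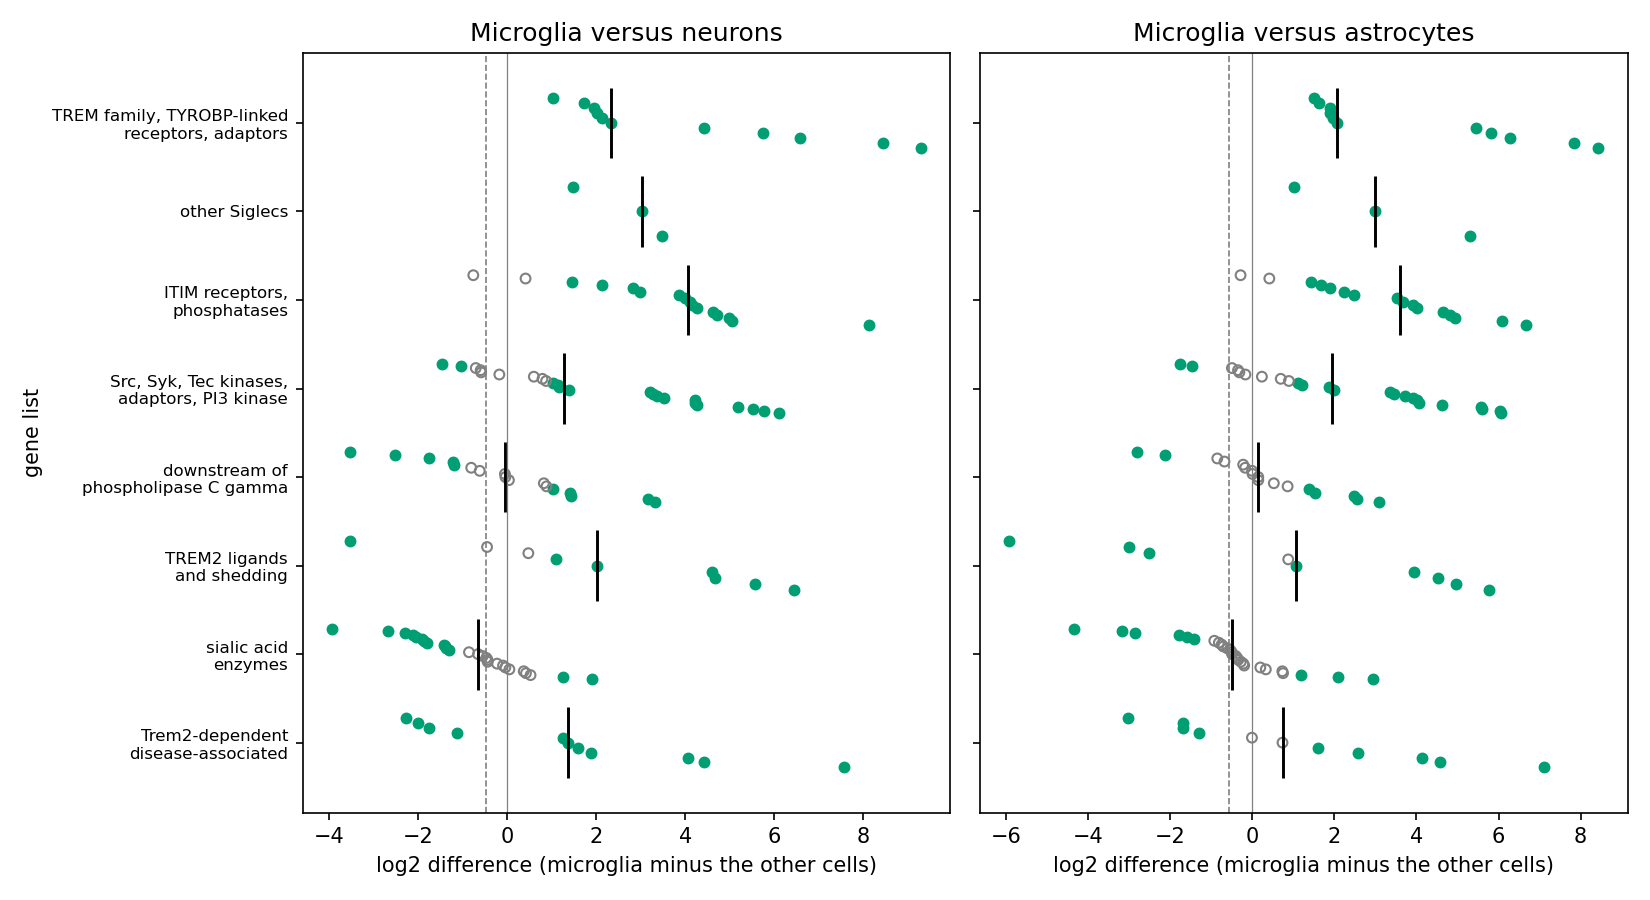
Log2 differences of the tested genes of 8 pathway lists (rows), microglia minus neurons on the left and microglia minus astrocytes on the right. Filled points are called, open points are not, black bars are list medians (4.05 and 3.61 for inhibitory receptors and phosphatases, -0.65 and -0.49 for sialic acid enzymes) and dashed lines the medians of all tested genes, -0.48 and -0.57.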

How the data were processed

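The authors deposited TPM per gene for 15 libraries, 5 per cell type. Per the labels' protocols, polyA RNA was amplified as cDNA and read on a NovaSeq as paired reads of 150 bases, 30000000 reads on average. DESeq2 1.36.0, RSEM 1.2.28, STAR 2.7.1a and Trim Galore 0.6.4 are named, without roles, per the submitters' processing notes, with build mm10. TPM keeps no read depth, so the depth behind each value is unknown and no counting interval is given. No 2 libraries held identical values.

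Genes reaching 1 TPM in 5 or more libraries (13351) were compared as log2(TPM + 1), pseudocount 1, with 1 mean per cell type and a variance trend in limma 3.58.1 (R 4.3.3) and Benjamini-Hochberg adjustment over all of them. Fold changes on that scale understate those of low genes. The scripts were tested on simulated data. Tables and figures used Python 3.11.15, pandas 2.3.3 and matplotlib 3.10.9.

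Members, lists, tests and alternatives were chosen with earlier results of these data known, and the T cell and natural killer cell list, and its split, after values were seen. Named genes are the 9 members, the 3 genes of most similar pattern, and per list those called lower in microglia and up to 4 called with the largest differences per comparison, with further examples chosen after their values were seen. A symbol on several rows is taken from its most abundant row. Coordinates are those of GENCODE vM21 (mm10), where 20499 gene IDs were found. Replicate numbers recur in each cell type. After group means were removed, libraries of 1 number correlated at 0.216 to 0.382 between microglia and neurons, -0.0110 to 0.249 between microglia and astrocytes and -0.0329 to 0.233 between neurons and astrocytes, so by a rule of over 0.1 for every pair they pair only the first. This pairing comes from the data, not the labels. Protein sequences were not used here. One gene that the naming rule selects is not reported here.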

Additional observations from a re-analysis of the deposited data

How the results depend on the processing

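In 26 alternatives (25 for Siglec1, which the stricter filter of 5 TPM drops from the genes tested), each member kept its direction and call in both comparisons with microglia. With the replicate number as a block these counts stayed at 9 of 9, and the block changed no member's call, while genes called higher in microglia were 1308 against neurons. Members called between neurons and astrocytes moved from 0. With a pseudocount of 0.1, 3 were lower in neurons (Trem2, Cd33 and Siglece) and 1, Inpp5d, was higher, as it was with array weights (1). Leaving out each library in turn gave 0 to 1 higher. The cause was not tested.

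Scaling moved counts over all genes. Genes higher in microglia than in neurons were 1300, and 2107 with median-of-ratios scaling and 1952 with quantile normalization, and lower ones were 3945, and 2655 and 2447. Against astrocytes 1359 became 2285 and 2048, and 4313 became 2619 and 2471. So 24.8% of called genes were higher against neurons, and 44.2% and 44.4% under these scalings, and 24.0%, 46.6% and 45.3% against astrocytes. They moved the median log2 difference by 0.51 and 0.45 against neurons and 0.54 and 0.52 against astrocytes.

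List counts moved as follows, with causes not tested unless the filter left fewer genes to test. With the stricter filter the TREM list had 5 of 11 calls left in each comparison with microglia, the kinase list 0 lower in both and 0 in either direction between neurons and astrocytes, and the disease-associated list 1 higher in neurons than astrocytes in place of 2. With both scalings the kinase list had 1 lower in microglia in place of 2 in each comparison, and the phospholipase list 3 lower than in neurons in place of 5. Quantile normalization gave 5 sialic acid genes higher in microglia than astrocytes in place of 3. Without microglia libraries 1 and 2, 1 inhibitory gene, Ptpn11, was lower than in neurons in place of 0. Between neurons and astrocytes, the pseudocount of 0.1 gave 2 TREM list genes lower in place of 0 (1 with array weights), 4 inhibitory genes lower in place of 2 and 4 kinase genes higher in place of 2. Inhibitory genes higher in neurons were 2, and 1 with no filter, both scalings, 2 groups only, array weights or the replicate block. Among other Siglecs 1 (Mag) was higher in neurons with 2 groups only or the replicate block, in place of 0. Leaving out each library gave 1 to 2 kinase genes lower in microglia than neurons, 1 to 2 inhibitory genes higher in neurons, and 0 to 1 TREM list genes lower and 0 to 1 other Siglecs higher in neurons than astrocytes. TPM keeps no depth, so what depth limits could not be measured, and levels below 1 TPM depend on the pseudocount.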

Other observations

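Hcst, which encodes the adaptor DAP10 of myeloid, T and natural killer cells, was also higher in neuron than in astrocyte libraries. It was at 2.15, 4.25, 6.61, 12.5 and 5.94 TPM in neurons and 1.49, 2.18, 1.52, 1.49 and 0.93 TPM in astrocytes (log2 difference 1.39, adjusted p = 0.000568, limma), and the ranges overlapped through neuron library 1. In the same libraries Lck (1.27, adjusted p = 0.00111) and Zap70 (1.14, adjusted p = 3.10e-06) were higher in each of the 5 neuron libraries than in any astrocyte library. Zap70 reached 1 TPM in the neuron libraries only and passed the filter only through them, so its call carries no weight. The 4 T cell markers summed to 15.6 ± 6.96 TPM in neurons, 1.73 ± 1.41 TPM in astrocytes and 3.89 ± 2.44 TPM in microglia (SD, n = 5). The 4 natural killer and cytotoxic cell markers were at 32.3 ± 25.3 TPM in neurons, 3.86 ± 0.878 TPM in astrocytes and 69.6 ± 26.3 TPM in microglia, and the part of either in these values was not tested.

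Ptpn6 split the neuron libraries, with 16.0 and 14.2 TPM in libraries 1 and 2 and 1.21 to 3.07 TPM in the other 3, against 1.37 to 2.86 TPM in astrocytes. Its call of higher in neurons (log2 difference 1.11, adjusted p = 0.0442, limma) ended in 14 alternatives, among them those without neuron library 1 (0.73) or 2 (0.77) and the replicate block (adjusted p = 0.0612). Neuron libraries 1 and 2 also had the highest Siglech values (2.63 and 4.77 TPM) and the highest oligodendrocyte sums (8434 and 10340 TPM) and microglia marker sums (122 and 137 TPM) of the neuron libraries. What these libraries share was not tested.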
